A study of Mus musculus with 4 samples.

Results

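The genes of fibroblast growth factor (FGF) and hepatocyte growth factor (HGF) signalling were followed in fibroblasts of a mouse pancreatic tumour. They were 10 genes taken by symbol from the count table, which writes names in lower case: the ligand genes fgf1, fgf2, fgf7, fgf10, fgf18 and hgf and the receptor genes fgfr1, fgfr2, fgfr3 and met. All 10 were among the 22609 genes listed, and all 10 were among the 13875 genes with enough counts to be tested. The cells were positive for fibroblast activation protein (FAP), a protease on the surface of stromal cells, and came from pancreatic ductal adenocarcinoma of a spontaneous mouse model on the C57BL/6 background. The sort separated them by the sialomucin CD34 into FAP+ CD34+ cells with 2 libraries and FAP+ CD34- cells with 2 libraries. Every cell of both fractions had thus passed the FAP gate. The alleles of the tumour model, the age and sex of the mice and the number of mice behind a library were not stated in the labels. The titles call the libraries biological replicates but name no animals, so p-values measure the spread between these libraries, which may be technical in part.

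FGFs are secreted proteins that bind receptor tyrosine kinases together with heparan sulfate on the cell surface. Fgf7 and Fgf10 are the classical stromal ligands that act on the epithelial splice form of Fgfr2, while Fgf1 and Fgf2 lack a classical signal peptide and act on several receptors. HGF, first known as scatter factor, is made as an inactive precursor by mesenchymal cells, is cut by serine proteases outside the cell and acts on the receptor Met of epithelial cells. Activated FGF receptors and Met both signal through the MAP kinase cascade, whose feedback genes include Dusp6, the Sprouty and Spred genes and the Etv factors.

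Total counts lay between 10322354 and 14633561 per library. Levels are given as CPM, the reads of a gene scaled to the library total. Log2 fold changes are CD34+ over CD34- from edgeR's quasi-likelihood test, with p adjusted over all 13875 genes by Benjamini-Hochberg. The CD34+ libraries held 143 and 293 CPM of Cd34 and the CD34- libraries 18.3 and 23.9 CPM, the order that the labels give. Fap was 79.0 and 39.8 CPM in CD34+ and 142 and 136 CPM in CD34- cells, lower without overlap (log2 fold change -1.20, edgeR adjusted p = 0.230). All 10 fibroblast markers were present, led by the collagen gene Col1a2 (15840 to 18149 CPM). Without overlap 1 was higher (Pdpn) and 4 were lower (Col1a2, Col3a1, Pdgfrb and Fap), against 23.4% higher and 26.6% lower over all genes. Pdgfrb was 296 and 330 against 599 and 486 CPM, and Pdpn 741 and 501 against 184 and 374 CPM. At an adjusted p of 0.05 this test called 0 of 13875 genes, or 0%, and so no FGF or HGF gene. At an unadjusted p of 0.05 it marked 16.5% of all genes, with 9.81% higher and 6.65% lower in CD34+ cells. DESeq2 called 396 genes higher and 180 lower, together 4.15% of all genes, and none of the 10 FGF and HGF genes was among them. Limma voom called 0.

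Among the 10 genes, Fgf7 and Fgf18 were the ligand genes with a higher level in both CD34+ libraries than in either CD34- library. Fgf7, the keratinocyte growth factor gene, was 50.4 and 73.0 CPM in CD34+ replicates 1 and 2 and 31.8 and 34.5 CPM in CD34- replicates 1 and 2. The groups did not overlap, and the CD34- libraries lay close together while the CD34+ libraries were spread more widely. The means were 61.7 ± 16.0 and 33.1 ± 1.93 CPM (SD, n = 2 each), with a log2 fold change of 0.91 (SE 0.27, unadjusted p = 0.0154, edgeR adjusted p = 0.230). Fgf18, a ligand gene known from bone and lung development, was 24.2 and 39.3 CPM in CD34+ and 5.22 and 14.6 CPM in CD34- libraries. Again no CD34- library reached the lower CD34+ library, and replicate 2 was the higher one in each fraction. Its means of 31.8 ± 10.7 and 9.92 ± 6.65 CPM (SD, n = 2 each) gave a log2 fold change of 1.66 (SE 0.55, unadjusted p = 0.0228, edgeR adjusted p = 0.250). Neither gene passed over all genes. Both were under an unadjusted p of 0.05, as were 9.81% of all genes in that direction. For 2 of the 10 genes to be higher without overlap is close to the rate over all genes, 23.4%, and 0 of 10 were lower without overlap, against 26.6% of all genes; 50.1% of all genes did not overlap in either direction. In bulk RNA, more cells that make a transcript and more transcript per cell cannot be told apart.

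The sign of both differences was the same under all 14 alternative settings, but the unadjusted p exceeded 0.05 when some libraries were left out. Without CD34+ replicate 2 Fgf7 had a log2 fold change of 0.61 and an unadjusted p = 0.0643 (edgeR adjusted p = 0.243). The values were 0.75 and 0.138 without CD34- replicate 1 (edgeR adjusted p = 0.633), and 1.05 and 0.0592 without CD34- replicate 2 (edgeR adjusted p = 0.560). For Fgf18 the unadjusted p was 0.140 without CD34+ replicate 2 (edgeR adjusted p = 0.340) and 0.0734 without CD34- replicate 1 (edgeR adjusted p = 0.590). Its log2 fold change moved between 1.03 without CD34- replicate 1 and 2.69 without CD34- replicate 2. On the deposited RPKM scale Fgf7 was 10.6 and 19.9 in CD34+ and 9.72 and 11.1 in CD34- libraries, so that the groups overlapped there. Its difference on log2(RPKM + 1) was 0.45 (SE 0.37, adjusted p = 0.472, limma), on a scale where the median of all genes was -0.31. On the deposited FPKM scale Fgf7 was 4.34 and 8.56 in CD34+ and 3.62 and 3.42 in CD34- libraries, without overlap. Fgf18 did not overlap by RPKM, at 12.5 and 26.4 against 3.93 and 11.6. By FPKM it did overlap, at 13.8 and 31.3 in CD34+ and 4.52 and 14.2 in CD34- libraries.

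**Figure D1:**
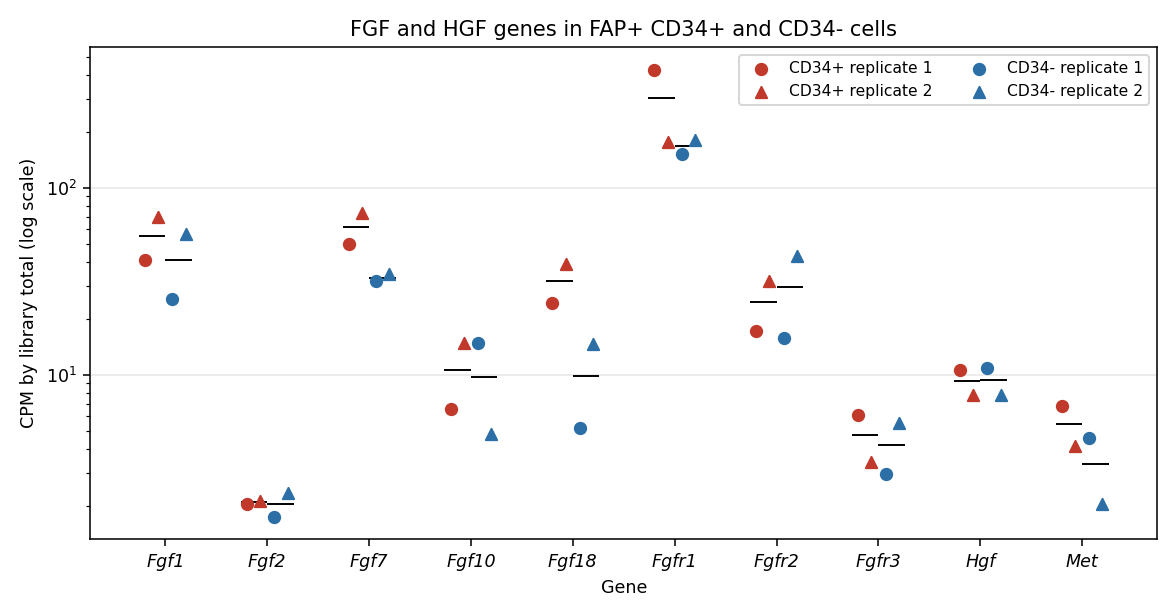
CPM (log scale) of the 10 FGF and HGF genes in each library, CD34+ in red and CD34- in blue, with circles for replicate 1, triangles for replicate 2 and a bar at each group mean. Fgf7 and Fgf18 are the genes whose groups do not overlap, and Fgfr1 in CD34+ replicate 1 stands at 428 CPM, above the other 3 libraries.

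The sequence just upstream of these 2 genes is shown because they were the members that lay higher together; this choice was made with their values known. Of the 10 genes, 8 had an entry in the RefSeq promoter table (GRCm38.p6), and the 250 bases before the start are given 5' to 3' on the gene's strand. Capitals mark matches, on either strand, to the TATA box TATAAA, the CCAAT box CCAAT, the GC box GGGCGG, the AP-1 site TGACTCA and the E-box CACGTG.
Fgf7, chr2:126034408-126034657, plus strand: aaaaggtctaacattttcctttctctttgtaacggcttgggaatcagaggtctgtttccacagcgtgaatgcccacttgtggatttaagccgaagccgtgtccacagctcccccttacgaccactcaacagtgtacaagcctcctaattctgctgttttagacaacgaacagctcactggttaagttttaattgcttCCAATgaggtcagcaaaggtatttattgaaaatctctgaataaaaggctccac
Fgf18, chr11:33147401-33147650, minus strand: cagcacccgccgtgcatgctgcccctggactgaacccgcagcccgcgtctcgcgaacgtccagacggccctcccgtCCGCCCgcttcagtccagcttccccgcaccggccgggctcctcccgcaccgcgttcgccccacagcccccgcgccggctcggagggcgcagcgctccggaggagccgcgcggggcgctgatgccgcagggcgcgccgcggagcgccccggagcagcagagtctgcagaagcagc
The windows are unlike in composition. The Fgf7 window was 43.6% G and C with 6 CpG, and 79.9% of the 32851 promoters in the table have at least that share of G and C. The Fgf18 window was 77.2% G and C with 37 CpG, a share reached by 2.58% of promoters. The Fgf7 window held 1 CCAAT match, as 33.9% of promoters hold at least 1, and the Fgf18 window held 1 GC box match, on the opposite strand, as 32.7% do. The TATA box, AP-1 and E-box letters occurred in neither window, against 12.4%, 4.46% and 6.02% of promoters. These matches describe letters and not bound sites.

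The other FGF ligands among the 10 genes, Fgf1, Fgf2 and Fgf10, overlapped between the fractions. Fgf1, whose product binds all FGF receptors, was 41.1 and 69.7 CPM in CD34+ and 25.3 and 56.9 CPM in CD34- libraries. In each fraction replicate 2 was above replicate 1, by 1.70 times in CD34+ and 2.25 times in CD34- cells, while the CD34+ mean was 1.35 times the CD34- mean. The log2 fold change of Fgf1 was 0.42 (SE 0.47, edgeR adjusted p = 0.676) and turned to -0.02 without CD34+ replicate 2 and -0.13 without CD34- replicate 1. Fgf10, the partner of Fgf7 on epithelial Fgfr2, was 6.59 and 14.7 CPM in CD34+ and 14.8 and 4.85 CPM in CD34- libraries. Here the order of the replicates was opposite in the fractions, and the log2 fold change of 0.17 had an SE of 0.60 (edgeR adjusted p = 0.906). Leaving out 1 library moved it between -0.52 (without CD34+ replicate 2) and 1.05 (without CD34- replicate 1). Fgf2, basic FGF, had the lowest count of the ligand genes, with 21 and 29 reads in CD34+ and 23 and 34 reads in CD34- libraries. That is 2.03 and 2.12 against 1.74 and 2.32 CPM, with a log2 fold change of 0.04 (SE 0.50, edgeR adjusted p = 0.974).

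Hgf did not separate the fractions. It was 10.7 and 7.84 CPM in CD34+ and 10.9 and 7.79 CPM in CD34- libraries, from 107 to 144 reads. The means were 9.25 ± 1.99 and 9.34 ± 2.19 CPM (SD, n = 2 each), a difference smaller than either SD, while the fitted log2 fold change, after TMM scaling, was 0.01 (SE 0.37, edgeR adjusted p = 0.988). Its sign turned in 8 of 14 alternatives, with values from -0.39 to 0.21. Replicate 1 was the higher library in both fractions. Met, its receptor gene, was 6.78 and 4.18 CPM in CD34+ and 4.61 and 2.05 CPM in CD34- libraries, from 30 to 70 reads, and also had replicate 1 above replicate 2 in both. The fractions overlapped for Met, with a log2 fold change of 0.76 (SE 0.55, edgeR adjusted p = 0.512).

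Among the FGF receptor genes Fgfr1, Fgfr2 and Fgfr3, Fgfr1 was the main one in every library. Fgfr1, the receptor gene of mesenchymal cells, was 428 and 177 CPM in CD34+ and 153 and 180 CPM in CD34- libraries. A single library, CD34+ replicate 1, was high, and the other 3 lay between 153 and 180 CPM. The log2 fold change of 0.88 (SE 0.46, edgeR adjusted p = 0.387) became 0.07 without CD34+ replicate 1 and 1.37 without CD34+ replicate 2. Fgfr2 was 17.2 and 31.9 CPM in CD34+ and 15.7 and 43.1 CPM in CD34- libraries. As for Fgf1, replicate 2 was the higher library in both fractions, by 1.85 and 2.75 times. Fgfr2 had a log2 fold change of -0.27 (SE 0.55, edgeR adjusted p = 0.826), the only negative value among the 10 genes, which became 0.74 without CD34- replicate 2 and 0.08 without CD34+ replicate 1. Gene counts do not separate the splice forms of Fgfr2, so the epithelial and mesenchymal forms were not measured apart. Fgfr3 was low, at 6.10 and 3.44 CPM in CD34+ and 2.95 and 5.54 CPM in CD34- libraries, with overlap and a log2 fold change of 0.17 (SE 0.56, edgeR adjusted p = 0.899).

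**Figure D2:**
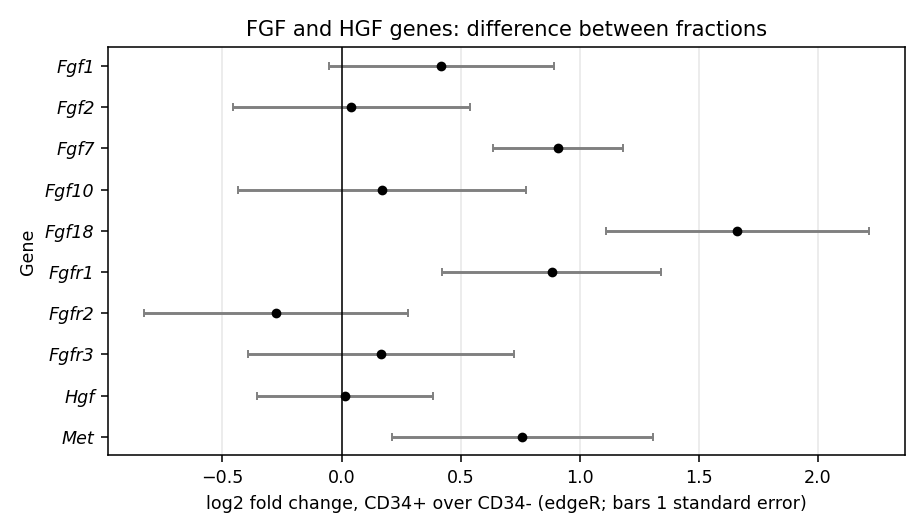
Log2 fold change, CD34+ over CD34-, of the 10 genes from edgeR's quasi-likelihood fit, with bars of 1 standard error. Fgf18 (1.66) and Fgf7 (0.91) lie farthest from 0 in units of their error, and Hgf and Fgf2 lie at 0.01 and 0.04.

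Positive log2 fold changes were found for 9 of the 10 genes, Hgf (0.01) among them, and for 48.7% of all genes. The median was 0.29 for the 10 genes and -0.02 for all genes. For 4 of the 9 (Fgf7, Fgf18, Fgfr1 and Met) the sign held in all 14 alternatives. The others, Fgf1, Fgf2, Fgf10, Fgfr3 and Hgf, turned in at least 1. Replicate number ordered several genes alike in both fractions. Fgf1, Fgf2, Fgf7, Fgf18 and Fgfr2 were higher in replicate 2 in both fractions, which held for 24.4% of all genes, and Hgf and Met were lower in replicate 2 in both, which held for 33.1%. No source used here says what the replicate numbers share, and the part of any batch was not tested.

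Levels between genes were compared per gene length, on the deposited RPKM. Fgfr1 was the highest of the 10 genes in CD34+ replicate 1 (48.0 RPKM) and in the CD34- libraries (24.9 and 31.1 RPKM), and in CD34+ replicate 2 Fgf18 (26.4 RPKM) lay just above Fgfr1 (25.7 RPKM). Fgfr1 made up 94.7% and 83.6% of the summed RPKM of Fgfr1, Fgfr2 and Fgfr3 in CD34+ libraries and 89.2% and 79.0% in CD34- libraries, and Fgfr2 3.67%, 14.5%, 8.81% and 18.2% in the same order. Both genes varied more between replicates than between fractions in this share. The receptor gene Fgfrl1, which is outside the 10 genes and this share, had a mean of 15.1 RPKM, beside 32.4 for Fgfr1 and 3.98 for Fgfr2. Among the 5 FGF ligand genes, Fgf18 made up 39.8% and 41.3% of the summed RPKM in CD34+ libraries and 16.6% and 29.7% in CD34- libraries. Fgf7 was first in CD34- replicate 1 (41.1%) and Fgf1 in CD34- replicate 2 (32.1%), where the shares of Fgf1, Fgf18 and Fgf7 lay between 28.5% and 32.1%. Fgf7 was above Fgf10 in all 4 libraries, by 13.1 and 8.49 times in CD34+ and 3.69 and 12.2 times in CD34- cells. Hgf was between 2.07 and 3.23 RPKM and Met, the lowest of the 10 genes in every library, between 0.27 and 0.57 RPKM.

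The order in the middle of this range depended on the authors' unit. The deposited bias-adjusted FPKM of a gene was a median of 0.853 times its RPKM over all tested genes, but 0.389 times for Fgf7, 0.525 times for Hgf and 2.03 times for Fgf2. Fgf2, at 1.64 to 2.88 RPKM, thus lay below Fgf7 and Fgf1 in every library by RPKM, while by FPKM (4.23 and 6.59) it lay above Fgf7 in both CD34- libraries. Among the ligand genes of the 10, Fgf18 was the highest in all 4 libraries by FPKM, from 4.52 to 31.3. Met was the lowest of the 10 genes by both units in every library. The cause of the difference between the units was not tested.

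**Figure D3:**
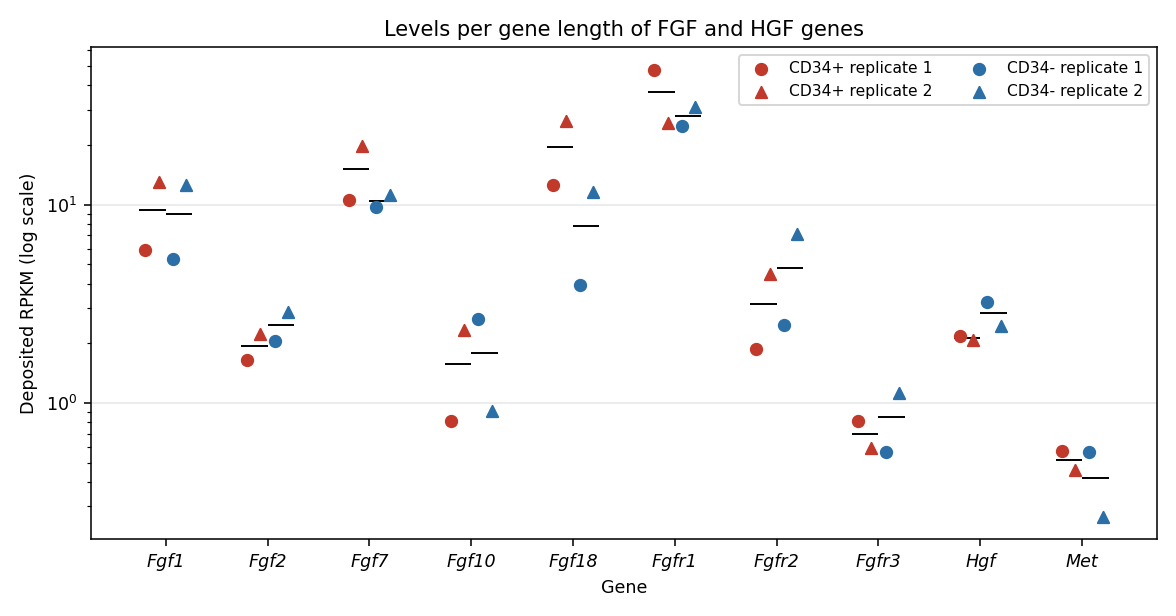
Deposited RPKM (log scale) of the 10 genes in each library, with CD34+ in red, CD34- in blue, circles for replicate 1, triangles for replicate 2 and bars at group means. Fgfr1 (24.9 to 48.0 RPKM) is the highest gene in 3 of 4 libraries and Met (0.27 to 0.57 RPKM) is the lowest in all 4.

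Genes with the nearest profile were looked up for Fgfr1, Fgf7 and Fgf1, the members with the highest mean CPM, as the smallest Euclidean distance of mean-centred log2 CPM over the 4 libraries among 8923 genes. For Fgfr1 these were Hivep2 (distance 0.11) and Lonrf1 (0.13), which share the single high library, CD34+ replicate 1. Fgf7 lay nearest to Iqsec1 (0.10) and Cpz (0.14), and Fgf1 to Bmp4 (0.10) and Fam49a (0.12). With 4 libraries many genes have alike profiles, and these distances describe the libraries only.

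Of the 17 further FGF ligand genes 4 were tested, and the other 13 had too few counts. Fgf9, a ligand gene that acts on mesenchymal receptor forms, was 73.3 and 107 CPM in CD34+ and 6.58 and 32.0 CPM in CD34- libraries, the same order of libraries as Fgf18. The log2 fold change of Fgf9 was 2.19 (SE 0.72, edgeR adjusted p = 0.247), while DESeq2 called it (adjusted p = 0.0156). The adjusted p lay between 0.0156 and 0.573 over the alternatives. Per length Fgf9 had a mean of 9.16 RPKM, beside 9.18 for Fgf1, 12.8 for Fgf7 and 13.6 for Fgf18. Fgf21, an endocrine FGF gene, lay the other way, at 2.13 and 1.54 against 5.22 and 5.81 CPM (log2 fold change -1.57, SE 0.47, edgeR adjusted p = 0.230). Fgf23, also endocrine, was between 0.89 and 2.86 CPM with overlap.

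Genes of co-receptors and of heparan sulfate, which hold FGFs at the cell surface, were compared next. Of 13 tested receptor and co-receptor genes 6 were lower and 2 higher without overlap in CD34+ cells, against 26.6% and 23.4% of all genes, and 0 passed (edgeR adjusted p from 0.171 to 0.815). Those higher, named here after their values were known, were Fgfr4, the remaining FGF receptor kinase gene (4.55 and 2.49 against 0.68 and 0.55 CPM), and Mst1r, a receptor gene related to Met (27.5 and 24.0 against 19.6 and 17.2 CPM). Sdc1, the heparan sulfate proteoglycan syndecan-1, was 233 and 228 CPM in CD34+ and 1128 and 644 CPM in CD34- cells (log2 fold change -1.91, SE 0.35, edgeR adjusted p = 0.171). DESeq2 called Sdc1 (adjusted p = 2.7e-05), and so did edgeR with no filter (0.0115) and limma on log2(RPKM + 0.1) (0.0317), while its adjusted p reached 0.573 in another alternative. Sdc2 was 119 and 181 against 234 and 305 CPM, while the syndecan gene Sdc4 (191 to 394 CPM) overlapped and the glypican gene Gpc1 (402 and 217 against 442 and 407 CPM) did not. Of 10 genes for ligand release and heparan sulfate 0 were higher and 6 were lower without overlap, against 23.4% and 26.6% of all genes. Among them were the sulfotransferase genes Hs6st2 (66.2 and 78.5 against 126 and 175 CPM) and Hs2st1 (54.1 and 84.6 against 127 and 150 CPM), the polymerase gene Ext1 (255 and 276 against 306 and 384 CPM) and the sulfatase gene Sulf1 (219 and 314 against 407 and 510 CPM). Sulf2 overlapped (135 to 330 CPM). None of these 10 passed over all genes (adjusted p from 0.220 to 0.730, edgeR).

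Of the genes around the cutting of the HGF precursor, 5 had a positive and 3 a negative log2 fold change, while Hgf itself overlapped. Of 8 tested 5 were higher and 1 was lower without overlap, against 23.4% and 26.6% of all genes, and 0 passed over all genes (adjusted p from 0.227 to 0.876, edgeR). The 5 include the protease inhibitor genes Spint1 and Spint2, which oppose the cut, beside the protease genes St14, Hpn and Plau. Hpn, encoding the HGF-cutting protease hepsin, was 8.72 and 6.67 CPM in CD34+ and 2.27 and 3.49 CPM in CD34- libraries, and Plau, encoding urokinase, was 46.5 and 41.3 against 28.1 and 22.3 CPM. The most abundant genes of the group per length were Plat (719 and 578 against 786 and 924 CPM), Plaur (328 and 179 against 355 and 316 CPM) and Spint2 (40.7 and 45.6 against 27.6 and 34.4 CPM). Plat and Plaur had negative log2 fold changes (-0.38 each). The summed level of the list was 1180 and 862 CPM in CD34+ and 1215.5 and 1307 CPM in CD34- libraries. In CD34+ replicate 1 St14, the gene of the epithelial protease matriptase, was 20.5 CPM, and in the other 3 libraries it was between 2.46 and 3.74 CPM. The epithelial markers Cldn4 (90.5 and 15.6 against 20.7 and 15.0 CPM), Cldn7 (21.3 and 4.03 against 3.40 and 3.49 CPM) and Epcam (49.7 and 16.9 against 10.1 and 18.6 CPM) were also highest in CD34+ replicate 1. Krt7, Krt19, Muc1 and Tff2 of that list were highest there too, but Krt8, Krt18 and Cdh1 were highest in CD34- replicate 1. The part of epithelial markers in the HGF activation genes was not tested. St14, Spint1 and these markers were named with their values known.

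Feedback and target genes of receptor signalling mostly lay lower in CD34+ cells. Of 16 tested, 11 had a negative log2 fold change and 5 a positive one, which 48.7% of all genes had. Without overlap 10 were lower, against 26.6% of all genes, and 3 (Spry2, Flrt2 and Flrt3) were higher, against 23.4%. Of the list, 0 passed over all genes (adjusted p from 0.171 to 0.737, edgeR). The list's median was -0.33, against -0.02 for all genes, and 10 to 13 members were negative over the 14 alternatives. Dusp6, the ERK phosphatase induced by FGF signalling, was 14.8 and 25.9 CPM in CD34+ and 192 and 80.5 CPM in CD34- libraries. The CD34- libraries were both far above the CD34+ libraries, and the log2 fold change was -2.70 (SE 0.47, edgeR adjusted p = 0.171). DESeq2 called Dusp6 (adjusted p = 2.8e-06), as did edgeR with no filter (0.0035) and limma on log2(RPKM + 0.1) (0.0319), and its adjusted p lay between 2.8e-06 and 0.509 over the alternatives. Spred1, an inhibitor of Ras signalling, was 14.1 and 31.2 against 67.5 and 63.3 CPM (log2 fold change -1.51, SE 0.39, adjusted p = 0.203, edgeR; adjusted p = 0.0217 by DESeq2). Etv4 was 58.0 and 13.7 against 79.4 and 61.8 CPM, and Egr1, the most abundant of the list, overlapped (966 to 2233 CPM). These genes answer to many receptors, and the part of FGF receptors or Met in them was not tested. The receptor adaptor genes lay closer to 0, with a median of -0.13. Of 10, 8 were negative and 2 positive, against 48.7% positive over all genes. Without overlap 5 (Shc1, Crk, Cbl, Sos1 and Crkl) were lower, against 26.6% of all genes, and 0 were higher, against 23.4%. Shc1 was 77.3 and 84.0 against 129 and 125 CPM, Crk 99.9 and 129 against 150 and 157 CPM, Cbl 28.4 and 32.7 against 46.7 and 35.3 CPM, and Ptpn11 overlapped (152 to 243 CPM).

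**Figure D4:**
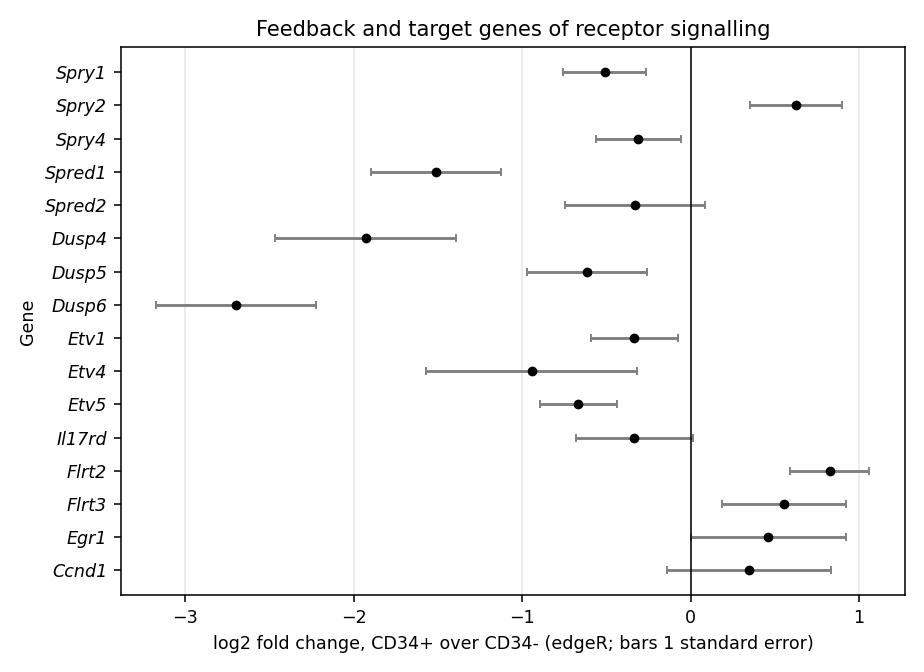
Log2 fold change, CD34+ over CD34-, of the 16 feedback and target genes from edgeR's quasi-likelihood fit, with bars of 1 standard error. Dusp6 (-2.70), Dusp4 (-1.93) and Spred1 (-1.51) lie farthest below 0, and 11 of 16 are negative.

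Markers of other cell types were present in the same libraries, and their counts are read against the 23.4% of all genes that were higher and the 26.6% that were lower without overlap. Of 10 endothelial markers 8 were higher and 2 lower without overlap in CD34+ cells; their summed level was 99.4 and 76.1 CPM in CD34+ and 46.8 and 47.4 CPM in CD34- libraries, and the most abundant, Esam, was 8.91 and 9.30 against 13.5 and 17.5 CPM. All 10 tested myeloid markers had positive log2 fold changes, against 48.7% of all genes, but only 3 were higher without overlap. Their sums were 252 and 156 against 145 and 90.9 CPM. The most abundant, Cd14, overlapped (115 and 54.2 against 76.1 and 34.8 CPM). Epithelial markers, which bear on Met, Fgfr2 and Fgfr3, summed to 946 and 599 CPM in CD34+ and 827 and 443 CPM in CD34- libraries, with 3 of 10 tested higher without overlap, near the share over all genes. Their sums had replicate 1 above replicate 2 in both fractions, as had Met and 33.1% of all genes. Fgfr2 had replicate 2 above replicate 1 in both fractions, as had 24.4% of all genes, and Fgfr3 had it in CD34- cells only. Among single epithelial markers Epcam (10.1 and 18.6 CPM), Tff2 (4.39 and 14.1 CPM) and Cldn7 (3.40 and 3.49 CPM) also had it in CD34- cells only. The most abundant was Krt8 (142 to 263 CPM), and Tff1 had 0 counts in all 4 libraries but deposited FPKM of 17.2 and 18.9 in CD34+ and 14.0 and 11.7 in CD34- libraries, so the tables differ on it. Of 9 tested mesothelial markers 4 were higher without overlap, with sums of 822 and 591 against 779 and 407 CPM. Krt8, Krt18 and Krt19 stand in both this list and the epithelial list, so the sums of the lists share them. Pericyte markers had 4 of 9 lower and 1 higher without overlap (sums 439 and 347 against 499 and 574 CPM), and the most abundant, Cspg4, overlapped (51.9 to 243 CPM). Those lower were Rgs5 (2.13 and 7.33 against 45.5 and 89.7 CPM), Mcam (27.9 and 16.5 against 103 and 103 CPM), Higd1b (0.10 and 0.51 against 4.69 and 4.17 CPM) and Ndufa4l2 (13.4 and 24.5 against 81.9 and 45.3 CPM), and Anpep was higher (46.0 and 32.0 against 9.08 and 8.54 CPM). These pericyte and fibroblast markers were named with their values known, and 0 of either list passed over all genes (smallest adjusted p 0.157 and 0.230, edgeR). Of 8 lymphocyte markers 0 passed the count filter for testing, with sums of 0.96 to 3.15 CPM in 3 libraries and 22.0 CPM in CD34+ replicate 1. In that library Cd3e was 19.0 CPM, against 0.29 CPM in the other CD34+ library and 0 in the CD34- libraries. The sum there rests on this gene. Every other marker of the list was at or below 1.36 CPM (Cd79a) in that library, with Cd3g at 0.19 CPM. The part of other cell types in the levels of Fgf7, Fgf18, Fgfr1, Met and the other genes was not tested.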

How the data were processed

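RNA-seq libraries of sorted cells were made from RNA amplified with MessageAmp after a Purelink preparation, per the labels' protocols, so amplified copies are counted. Bowtie2, TopHat2, HTSeq, edgeR and the build mm9 are named in the submitters' processing notes. Not given in the sources used here are their versions, the annotation and whether counting used strand; without it, reads of overlapping genes cannot be told apart. The deposited counts are whole reads per gene, not normalized. Deposited RPKM values were scaled by the authors to gene length and library. The deposited FPKM are called bias-adjusted by the authors, and the deposited estimated counts of fragments that go with them were rounded. Each of the 4 tables holds 14 further columns that match no sample here, and they were not used.

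Counts of all 4 libraries were tested with edgeR 4.0.16 (R 4.3.3): TMM, filterByExpr, glmQLFit and glmQLFTest with the group as the only term, two-sided. The fit has 2 residual degrees of freedom per gene, and an exact permutation test of 2 against 2 could not go below p = 0.333. SE is the fitted difference over the root of its F statistic. Printed CPM use library totals without TMM. The fits were tested on simulated data with planted changes larger than the fitted change of any of these FGF and HGF genes. Detection of differences of their size was therefore not tested. Alternatives were other scalings, no filter or 1 CPM in 2 libraries, DESeq2 1.42.0, limma 3.58.1 (voom, and log2 RPKM with pseudocounts of 1 and 0.1), fragment counts, a replicate block and leaving out each library.

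The genes and lists were chosen with earlier results of these data known. Named pathway genes are, per list, the 3 of highest mean RPKM and the 2 of smallest p from 5 CPM; for other cell types, the most abundant marker; and for the 3 members of highest mean CPM, the 2 nearest genes with at least 10 CPM. Others are named as group examples, and 1 listed gene is not reported here. A count of 0 allows up to 3 counts, 0.205 to 0.291 CPM, for counting error only.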

Additional observations from a re-analysis of the deposited data

How the results depend on the processing

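No FGF or HGF gene passed an adjusted p of 0.05 in any of the 14 alternatives. The counts over all genes did change, from 0 higher and 0 lower to 194 and 137 without a filter, 396 and 180 by DESeq2, 5 and 7 by limma on log2(RPKM + 1) and 32 and 66 with a pseudocount of 0.1; library totals only and a filter of 1 CPM each called 2 higher and 0 lower. With the replicate block edgeR called 39 and 23. The replicate numbers are shared by the fractions, but nothing in the labels says that they pair animals; deviations of the replicates correlated at 0.24 across genes between fractions, and with the block Fgf7 (0.89) and Fgf18 (1.81) were still not called. Fgf7 and Fgf18 were the 2 genes at an unadjusted p of 0.05, against 3 by DESeq2, where Fgfr1 joined them (unadjusted p = 0.04997, DESeq2 adjusted p = 0.322), 1 on both RPKM scales and between 0 and 2 when a library was left out. Without CD34+ replicate 2 the 1 gene was Fgfr1 (unadjusted p = 0.0121, edgeR adjusted p = 0.163), without CD34- replicate 1 there were 0, and without CD34- replicate 2 the 1 gene was Fgf18 (unadjusted p = 0.00276, edgeR adjusted p = 0.371).

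Of 140 log2 fold changes in alternatives, 25 turned in sign. Hgf did so with library totals (-0.0143), without a filter (-0.076), by voom (-0.0147), on fragment counts (-0.0367) and on log2 RPKM (-0.29 and -0.39 with pseudocounts of 1 and 0.1). Fgf2 turned without a filter (-0.0459), on fragment counts (-0.20) and on log2 RPKM (-0.24 and -0.33), as did Fgf10 (-0.10 and -0.16) and Fgfr3 (-0.11 and -0.19) on log2 RPKM. On that scale the median of all genes was -0.31 and -0.42 with the 2 pseudocounts, and the values of these 4 genes all lay above it. When a library was left out, values ran from -0.13 to 1.22 for Fgf1, -0.24 to 0.34 for Fgf2, -0.52 to 1.05 for Fgf10, -0.90 to 0.74 for Fgfr2, -0.33 to 0.78 for Fgfr3 and -0.25 to 0.21 for Hgf; the lone library of a group is then assumed to vary like the other group. Repeating the alternatives was added after the data were seen for 12 pathway genes, those named for the smallest p of their list and Fgf21. Of these, 0 turned in sign. Choice by p in these same libraries favours a stable sign, so this count cannot be set against that of the FGF and HGF genes. Other pathway genes were not repeated singly, and 10 to 13 feedback genes were negative, against 11. Fgf2, with 21 to 34 reads, and Met, with 30 to 70, are limited most by depth.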
